A study of Mus musculus with 8 samples.

Results

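The 10 keratin genes described here are Krt5, Krt7, Krt8, Krt14, Krt17, Krt18, Krt19, Krt20, Krt23 and Krt80, taken by gene symbol from a table of 26930 genes, where each symbol had exactly 1 row. They were followed in 8 RNA-seq libraries of reprogramming intermediates, mouse embryonic fibroblasts on day 8 of conversion toward pluripotency by OKSM (Oct4, Klf4, Sox2, Myc) in AGi medium. The cells were WT, a group whose libraries are also described as H3, or K36M, named for a histone H3 mutation that replaces the lysine at residue K36 with methionine. Both genotypes were cultured either with 250 nM Repsox, which blocks the receptor kinase of TGF-beta, or with 2.5 ng/ml of the cytokine itself (TGFb-1). This gave 4 groups of 2 libraries, named here WT-Repsox, WT-TGFb, K36M-Repsox and K36M-TGFb. The labels do not say how the factors or the mutant histone were delivered, whether the libraries of a group are separate cultures, or from what animals the fibroblasts came, so p-values measure the spread between these libraries only. No group lacked both agents, and a difference between the media cannot be assigned to either agent alone.

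Keratins are the intermediate filament proteins of epithelial cells, and a filament needs a type I partner paired with a type II partner. Krt8 (type II) and Krt18 (type I) form the filaments of simple, single-layered epithelia and are the earliest keratins of the embryo, while fibroblasts build their filaments from vimentin. Krt5 and Krt14 are the pair of the basal layer of stratified epithelia, and Krt17 is a keratin that skin epithelium induces on injury and other stress. Gain of epithelial genes is a known early step of reprogramming from fibroblasts, and TGF-beta is known to drive epithelial cells toward a mesenchymal state.

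On the mm9 genome the members lay in both keratin regions of the mouse, 5 on chromosome 15 and 5 on chromosome 11. Krt18 (ENSMUSG00000023043, chromosome 15, 101858647 to 101862457, plus strand) is a type I gene located among type II genes, 23.9 kb from its partner Krt8 (ENSMUSG00000049382, 101827142 to 101834773, minus strand). The other members on chromosome 15 were Krt7 (101241474 to 101260744), Krt80 (101177875 to 101200556) and Krt5 (101537501 to 101543322). On chromosome 11 were Krt20 (99289717 to 99299464), Krt23 (99339288 to 99354451), Krt19 (100002124 to 100009979), Krt14 (100064476 to 100068862) and Krt17 (100117531 to 100122343). Every member is a protein-coding gene of several exons, and no exon of another annotated gene overlapped one of theirs. Some are close copies of other keratins: of all windows of 50 bases, 14.4% of the Krt14 transcript, 8.55% of Krt5 and 3.99% of Krt17 occurred identically in another gene's coding transcript (Krt16 or Krt17 for Krt14, Krt6a and Krt6b for Krt5), and 0 did for the other 7. How reads from such stretches were counted is not given in the sources used here, so Krt5, Krt14 and Krt17 are the less certain values.

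The promoters of 4 members are shown because these genes responded to the medium in opposite ways: Krt8, Krt18 and Krt7 fell together under TGF-beta in WT cells, and Krt20 rose. The sequences are from RefSeq on GRCm38.p6, a later build than that of the gene positions above, and run from 250 bases before the annotated start to 25 after it, on the strand of the gene. Capitals mark matches on either strand, which can overlap, to any of 8 motifs: TATAAA (the TATA box), GGGCGG (a GC box), CACCC (bound by KLF and SP factors), TGANTCA (AP-1), GCCNNNGGC (AP-2), CACCTG (an E-box bound by ZEB and SNAI repressors), AACNNGTT (grainyhead-like factors) and ATGCAAAT (the octamer).
Krt8, chr15:102004318-102004592, minus strand: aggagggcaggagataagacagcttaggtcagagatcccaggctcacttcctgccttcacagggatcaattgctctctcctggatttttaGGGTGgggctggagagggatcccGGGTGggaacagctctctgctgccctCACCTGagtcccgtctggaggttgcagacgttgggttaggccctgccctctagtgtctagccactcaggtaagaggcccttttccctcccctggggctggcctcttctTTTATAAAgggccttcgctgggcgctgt
Krt18, chr15:102027966-102028240, plus strand: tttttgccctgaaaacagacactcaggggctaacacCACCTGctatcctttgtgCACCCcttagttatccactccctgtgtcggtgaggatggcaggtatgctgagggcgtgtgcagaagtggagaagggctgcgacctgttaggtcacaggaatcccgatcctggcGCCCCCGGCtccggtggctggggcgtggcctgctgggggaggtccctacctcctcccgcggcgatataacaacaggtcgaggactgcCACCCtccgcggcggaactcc
Krt7, chr15:101412153-101412427, plus strand: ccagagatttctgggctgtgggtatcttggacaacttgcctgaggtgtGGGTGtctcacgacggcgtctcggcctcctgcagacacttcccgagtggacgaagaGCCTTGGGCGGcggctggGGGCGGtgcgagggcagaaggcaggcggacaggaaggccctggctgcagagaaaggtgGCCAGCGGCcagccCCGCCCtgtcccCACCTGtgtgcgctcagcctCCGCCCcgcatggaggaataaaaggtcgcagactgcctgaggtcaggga
Krt20, chr11:99438129-99438403, minus strand: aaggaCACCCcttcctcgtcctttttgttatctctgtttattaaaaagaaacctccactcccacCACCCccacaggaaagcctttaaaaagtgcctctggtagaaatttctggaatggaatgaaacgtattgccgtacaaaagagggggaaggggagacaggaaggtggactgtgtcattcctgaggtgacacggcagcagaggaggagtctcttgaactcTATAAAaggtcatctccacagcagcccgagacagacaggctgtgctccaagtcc

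The promoter table held 7 of the 10 members, and the motifs were counted over 300 bases, up to 50 after the start. The CACCTG letters occurred in the windows of Krt8, Krt18 and Krt7 and not in that of Krt20; they also occurred in Krt5 and Krt23, and in 20.2% of all 32851 promoters. GCCNNNGGC occurred in Krt18 and Krt7, against 16.6% of all promoters, and GGGCGG in Krt7 at 4 places, against 35.7%. TATAAA occurred in Krt8 and Krt20, against 13.6%, and CACCC in every member window except Krt23, against 57.5%. TGANTCA (7.81% of all promoters), AACNNGTT (4.20%) and ATGCAAAT (1.74%) occurred in none of the 7. The Krt7 and Krt18 windows held 21 and 17 CG dinucleotides, and those of Krt8 and Krt20 held 6 each, where the median promoter held 7. These matches describe the letters only.

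Libraries held 10928302 to 15594217 counts, and 9 of the 10 members passed the filter on low counts applied to all genes, which kept 15789. Krt23 did not pass. Levels are CPM, counts scaled to a common library size with TMM factors, and both libraries of a group are given. A gene was called at an adjusted p below 0.05, and the error of a log2 fold change is its standard error. Each comparison between genotypes shares its libraries with both comparisons between media. Fewer epithelial-like cells and less keratin RNA per cell cannot be told apart in bulk RNA.

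In WT cells, TGF-beta went with much lower levels of the simple epithelial keratins, while in K36M cells the same genes stayed at high levels. Krt8 was read at 428 and 380 CPM in WT-Repsox, 14.9 and 12.7 in WT-TGFb, 955 and 927 in K36M-Repsox, and 568 and 535 in K36M-TGFb. All 4 groups stood apart, with WT-TGFb far below the rest. Krt8 was thus 29.4-fold lower under TGF-beta than under Repsox in WT (log2 -4.88 ± 0.09, adjusted p = 7.96e-21) and 1.71-fold lower in K36M (log2 -0.77 ± 0.07, adjusted p = 5.71e-09). Its level in K36M-TGFb was still 1.37-fold above that of WT-Repsox (log2 0.45 ± 0.07, adjusted p = 1.45e-05).

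Krt18, the type I partner of Krt8, had the same order of groups and a wider span. Its levels were 552 and 479 CPM in WT-Repsox, 9.55 and 11.6 in WT-TGFb, 1462 and 1375 in K36M-Repsox, and 754 and 699 in K36M-TGFb. It was 48.5-fold lower under TGF-beta in WT (log2 -5.60 ± 0.10, adjusted p = 3.03e-21) and 1.95-fold lower in K36M (log2 -0.96 ± 0.07, adjusted p = 2.49e-10). Again no 2 groups overlapped, and K36M-TGFb exceeded WT-Repsox, by 1.41-fold (log2 0.50 ± 0.07, adjusted p = 5.99e-06).

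Krt7, a type II keratin of simple and glandular epithelia, spanned the widest range of any member. It stood at 106 and 85.7 CPM in WT-Repsox, at 0.258 and 0.790 in WT-TGFb, at 411 and 391 in K36M-Repsox and at 146 and 137 in K36M-TGFb. The WT libraries under TGF-beta held only 3 and 11 Krt7 reads. The gene was 172-fold lower under TGF-beta in WT (log2 -7.43 ± 0.20, adjusted p = 1.66e-18; log2 -8.49 without WT TGF-beta replicate 2) and 2.84-fold lower in K36M (log2 -1.51 ± 0.10, adjusted p = 1.43e-11). The 2 K36M groups and WT-Repsox kept the order seen for Krt8 and Krt18.

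Krt19, a short type I keratin of simple epithelia that lacks most of the tail domain, was not called between media in K36M and fell in WT. Its levels were 104 and 98.8 CPM in WT-Repsox, 26.8 and 26.5 in WT-TGFb, 251 and 245 in K36M-Repsox, and 272 and 245 in K36M-TGFb. Its K36M groups overlapped (log2 0.06 ± 0.08, adjusted p = 0.540), whereas WT fell 3.81-fold (log2 -1.93 ± 0.09, adjusted p = 1.54e-14). The difference between these medium effects passed the test as well (log2 1.99 ± 0.12, adjusted p = 4.06e-12).

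Krt80, a type II epithelial keratin, fell under TGF-beta in both genotypes. It was read at 6.94 and 8.01 CPM in WT-Repsox, 1.72 and 1.80 in WT-TGFb, 40.95 and 36.6 in K36M-Repsox, and 12.8 and 10.7 in K36M-TGFb. The decrease was 4.22-fold in WT (log2 -2.08 ± 0.24, adjusted p = 7.46e-08) and 3.30-fold in K36M (log2 -1.72 ± 0.15, adjusted p = 2.19e-09). The difference between the 2 effects did not pass (log2 0.36 ± 0.29, adjusted p = 0.323). Krt80 exceeded WT-Repsox 1.58-fold in K36M-TGFb (adjusted p = 0.00272), and not without K36M TGF-beta replicate 1 (adjusted p = 0.0583).

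**Figure D1:**
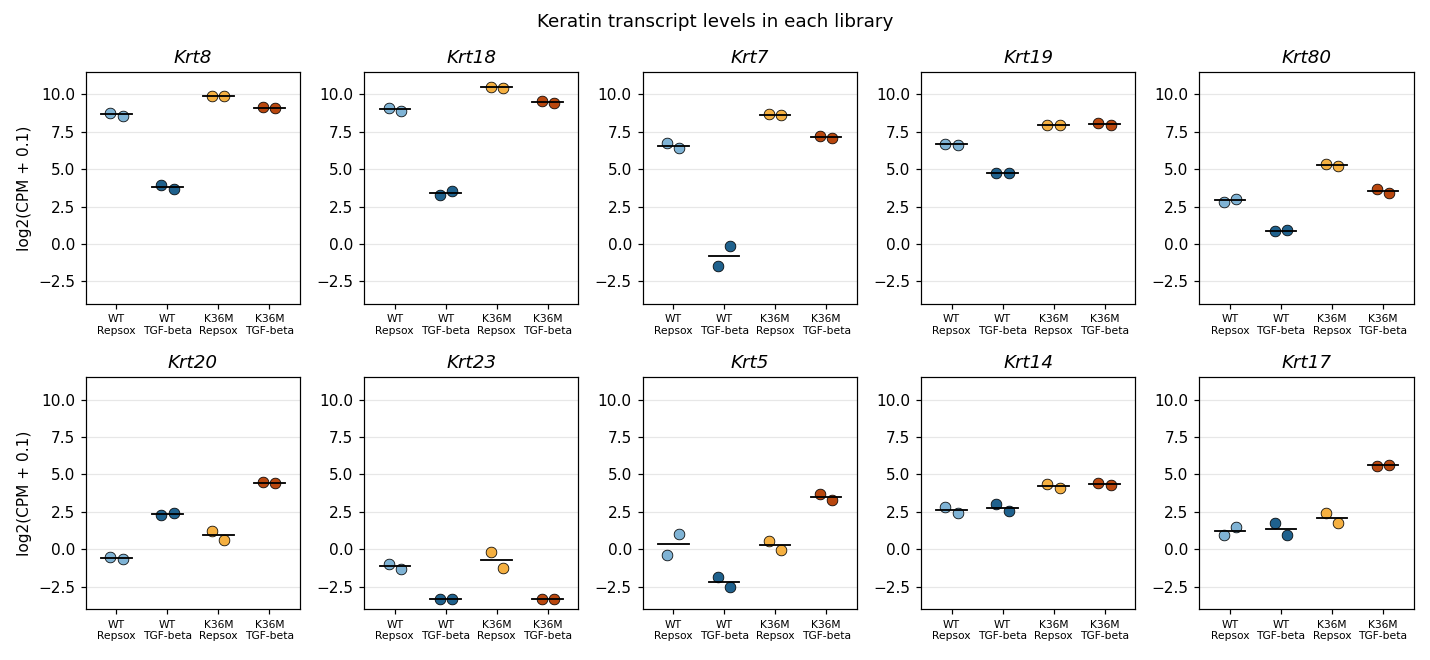
Level of each keratin in every library, as log2(CPM + 0.1) on the vertical axis, with 4 groups on the horizontal axis; points are the 2 libraries of a group and bars the mean of their log values. Krt8, Krt18 and Krt7 are lowest in WT-TGFb, Krt5 and Krt17 stand highest in K36M-TGFb, Krt14 separates by genotype, and Krt23 is at 0 reads in both TGF-beta groups.

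Among the remaining type I keratins, Krt20, known from intestinal epithelium, the surface cells of the bladder lining and Merkel cells, went the opposite way and rose with TGF-beta in both genotypes. It was read at 0.607 and 0.529 CPM in WT-Repsox, 4.82 and 5.24 in WT-TGFb, 2.24 and 1.45 in K36M-Repsox, and 22.3 and 21.1 in K36M-TGFb. The groups did not overlap, and each neighbour in their order differed. The increase was 8.72-fold in WT (log2 3.12 ± 0.34, adjusted p = 4.13e-08) and 11.6-fold in K36M (log2 3.53 ± 0.24, adjusted p = 3.57e-11), and the difference between these did not pass (log2 0.41 ± 0.50, adjusted p = 0.529). Krt23 was near its detection limit, with 6 and 4 reads in WT-Repsox, 12 and 4 in K36M-Repsox and 0 in all 4 TGF-beta libraries. Against a floor of 3 reads over the group, its rate was at least 3.03-fold lower under TGF-beta in WT and at least 4.68-fold lower in K36M, by counting error only.

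The basal and stress keratins did not share the pattern of Krt8 and Krt18. Krt17 was read at 1.82 and 2.64 CPM in WT-Repsox, 3.27 and 1.87 in WT-TGFb, 5.20 and 3.22 in K36M-Repsox, and 47.4 and 50.2 in K36M-TGFb. Both libraries of the last group stood above all others, and the 2 WT groups overlapped. Krt17 was thus 11.4-fold higher under TGF-beta in K36M (log2 3.51 ± 0.20, adjusted p = 2.94e-12), against log2 0.19 ± 0.32 in WT (adjusted p = 0.639), and the difference between the effects passed (log2 3.32 ± 0.40, adjusted p = 2.95e-07). Under Repsox Krt17 was 1.93-fold higher in K36M than in WT (adjusted p = 0.00794), but not without WT Repsox replicate 1 (adjusted p = 0.0795) or without K36M Repsox replicate 1 (adjusted p = 0.218).

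Krt5, the basal type II keratin, was also highest in K36M-TGFb, at 12.5 and 9.52 CPM. In the other groups it was rare: 0.674 and 1.96 CPM in WT-Repsox, 0.172 and 0.0718 in WT-TGFb, and 1.38 and 0.885 in K36M-Repsox. In K36M it was 9.51-fold higher under TGF-beta (log2 3.25 ± 0.37, adjusted p = 1.92e-07). In WT it fell (log2 -3.36 ± 0.77, adjusted p = 0.000677), from 36 reads over both libraries to 3, a ratio of 10.9 with an exact 95% interval of 3.45 to 55.4 for counting error. That value rested on few reads, and it was -3.96 without WT Repsox replicate 1, -2.43 without WT Repsox replicate 2 and -3.998 without WT TGF-beta replicate 1. The Krt5 groups under Repsox overlapped between genotypes (log2 -0.17 ± 0.48, adjusted p = 0.793).

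Krt14, the basal partner of Krt5, differed between genotypes and was called between media in neither. Its levels were 6.88 and 5.14 CPM in WT-Repsox, 8.09 and 5.67 in WT-TGFb, 20.7 and 16.7 in K36M-Repsox, and 20.9 and 19.2 in K36M-TGFb. The media overlapped within each genotype, with a medium effect of log2 0.18 ± 0.22 in WT (adjusted p = 0.502) and 0.10 ± 0.17 in K36M (adjusted p = 0.669). K36M stood above WT under both media, 3.11-fold under Repsox (log2 1.63 ± 0.19, adjusted p = 2.41e-07) and 2.94-fold under TGF-beta (log2 1.56 ± 0.19, adjusted p = 2.7e-07).

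Counted over the 9 tested members, TGF-beta against Repsox in WT gave 6 lower, 1 higher and 2 not called, with a median log2 fold change of -2.08. Of all tested genes 33.4% were called lower and 29.0% higher in that comparison, with a median of -0.07. In K36M, 4 members were lower and 3 higher, with a median of 0.06, against 23.6% and 24.7% of all genes and a median of 0.01. The difference between the 2 medium effects was called for 6 members, Krt5, Krt7, Krt8, Krt17, Krt18 and Krt19, each in the direction of a higher value in K36M, where 28.5% of all genes were called in that direction and 22.6% in the other. Krt14, Krt20 and Krt80 were not called for it.

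Between genotypes, 8 of the 9 were higher in K36M-Repsox than in WT-Repsox and 0 lower, with a median of 1.46, against 28.8% of all genes called higher, 26.9% called lower and a median of 0.04. Under Repsox the increases called ran from 1.93-fold for Krt17 to 5.20-fold for Krt80 (log2 2.38 ± 0.16, adjusted p = 1.4e-11), and those of Krt8, Krt19 and Krt20 were 2.33, 2.44 and 3.25-fold. Under TGF-beta all 9 tested were higher in K36M, with a median of 4.27, against 36.4% of all genes called higher, 33.9% called lower and a median of 0.05. Here the differences ran from 2.94-fold for Krt14 and 4.31-fold for Krt20 through 6.65-fold for Krt80, 9.71-fold for Krt19 and 19.3-fold for Krt17 to 254-fold for Krt7. Krt7 was 9.04 on the log2 scale without WT TGF-beta replicate 2, against 7.99 ± 0.20 with it. Krt5 was higher by a ratio of 94.5 (exact 95% interval 32.0 to 461, for counting error), a fitted log2 of 6.44 ± 0.56 that was 7.08 without WT TGF-beta replicate 1.

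Across both genotype and medium, all 9 tested members were higher in K36M-TGFb than in WT-Repsox, where 26.6% of all genes were called higher and 27.0% lower. The differences ran from 1.37-fold for Krt8 to 22.0-fold for Krt17 and 37.6-fold for Krt20. That of Krt5 was 8.48-fold (log2 3.08), and 2.48 and 4.02 on the log2 scale without WT Repsox replicates 1 and 2. Between the other corner groups, 8 members were higher in K36M-Repsox than in WT-TGFb and Krt20 was lower by 2.68-fold (adjusted p = 7.21e-05), against 38.7% of all genes called higher and 34.0% lower. Krt7 differed most, by 720-fold (log2 9.49, and 10.55 without WT TGF-beta replicate 2). Krt17 differed least, by 1.70-fold (adjusted p = 0.0216), in groups that overlapped, and its call was lost under 4 alternatives (adjusted p = 0.0505 to 0.376).

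**Figure D2:**
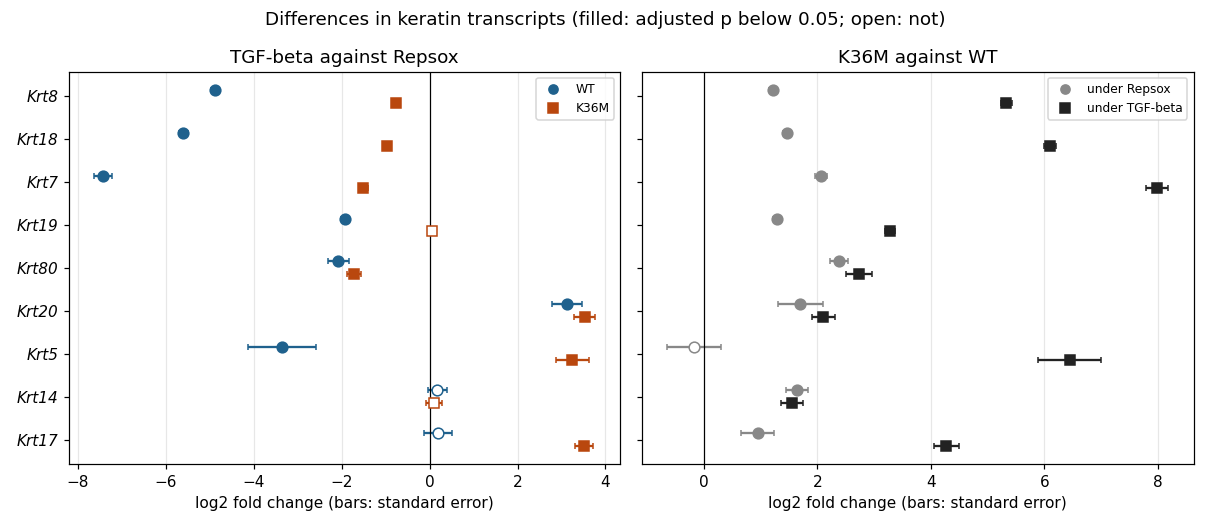
Log2 fold changes of the 9 tested keratins with standard errors, on the left TGF-beta against Repsox in WT (circles) and K36M (squares), on the right K36M against WT with Repsox (circles) and with TGF-beta (squares); filled symbols passed the adjusted p of 0.05. On the left the 2 genotypes lie far apart for Krt7, Krt18, Krt8 and Krt5 and close together for Krt80, Krt20 and Krt14.

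To compare the keratins with one another, levels were divided by the summed exon length of each gene. Krt18 and Krt8 led in 3 groups, at 368 ± 37.1 and 224 ± 19.0 CPM per kb (SD, n = 2) in WT-Repsox, 1013 ± 44.0 and 521 ± 11.1 in K36M-Repsox, and 519 ± 27.6 and 305 ± 13.1 in K36M-TGFb. Krt19 came next in those groups, at 54.7 ± 1.98, 134 ± 2.65 and 139 ± 10.4 CPM per kb. In WT-TGFb Krt19 led instead, at 14.4 ± 0.105 CPM per kb, above Krt8 at 7.65 ± 0.855 and Krt18 at 7.54 ± 1.01, which did not differ beyond their spread. Krt17 moved from seventh place in K36M-Repsox, at 2.67 ± 0.890, to the fourth in K36M-TGFb, at 30.96 ± 1.22 CPM per kb. There it stood above Krt7 at 20.04 ± 0.943, an order that turned when the transcript with the longest coding sequence was used as the length (31.5 for Krt17 and 34.5 for Krt7).

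The make-up of the keratin transcripts therefore shifted with the group. Krt8 and Krt18 together made up 88.9 and 88.3% of the summed level per kb of the 10 members in WT-Repsox, 38.5 and 41.04% in WT-TGFb, 87.7 and 87.8% in K36M-Repsox, and 78.8 and 79.0% in K36M-TGFb. The share of Krt19 was 36.8 and 38.3% in WT-TGFb and 7.55 to 13.6% in the other 6 libraries. Summed type I over summed type II members gave 1.79 and 1.78 in WT-Repsox, 3.47 and 3.90 in WT-TGFb, 2.00 and 1.95 in K36M-Repsox, and 2.15 and 2.13 in K36M-TGFb. That summed ratio was highest in WT-TGFb, where Krt19, of type I, led. Within the pair, Krt8 over Krt18 per kb was nearest to even there, at 1.21 and 0.853 in WT-TGFb and 0.507 to 0.615 in the other 6 libraries. With 2 libraries a group these shares and ratios were not tested.

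Vim, the filament protein of mesenchymal cells, ran opposite to the keratins between groups. Per kb of exon, the 10 keratins summed to 0.871 and 0.808 times Vim in WT-Repsox, 0.0189 and 0.0170 times in WT-TGFb, 45.1 and 36.1 times in K36M-Repsox, and 8.38 and 7.10 times in K36M-TGFb. Vim itself rose under TGF-beta in both genotypes, 2.68-fold in WT (log2 1.42 ± 0.07) and 3.12-fold in K36M (log2 1.64 ± 0.07), and the difference between these did not pass (adjusted p = 0.0672). In K36M, keratins such as Krt17 and Krt20 and the vimentin gene thus rose in the same libraries.

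**Figure D3:**
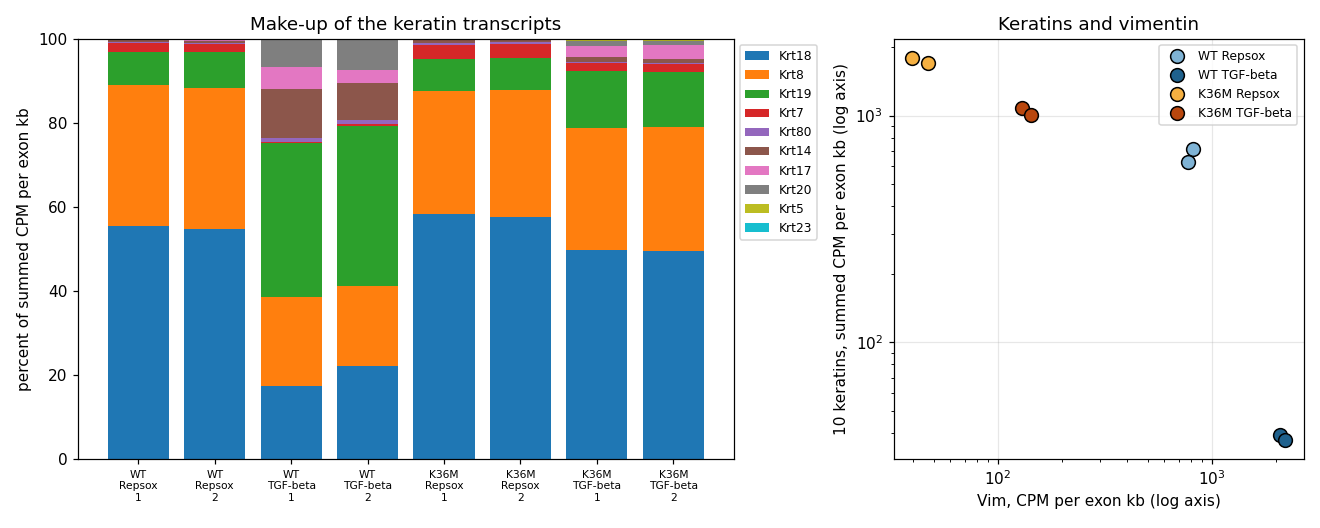
Left, percent of the summed CPM per exon kb of the 10 keratins held by each gene in every library; right, summed CPM per exon kb of the 10 keratins against Vim in every library, both on log axes. Krt8 and Krt18 fill 78.8% or more of 6 bars and 38.5 and 41.04% in WT-TGFb, whose 2 libraries also lie lowest for keratins and highest for Vim.

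The rest of the keratin family was read at low levels. The 10 members held 98.9 to 99.8% of the CPM of all keratins in 6 libraries, and 79.2 and 77.2% in WT-TGFb. Of 36 other keratins found in the table, 12 had 0 reads, 8 passed the filter, and none exceeded a mean of 6.75 CPM in any group. Several of these ran against Krt8 and Krt18. Krt13, a keratin of non-cornified stratified epithelia, was read at 6.03 and 7.47 CPM in WT-TGFb, 1.48 and 2.04 in WT-Repsox, 0.860 and 1.14 in K36M-TGFb, and 0.198 and 0 in K36M-Repsox. It was 3.85-fold higher under TGF-beta in WT (log2 1.94 ± 0.36, adjusted p = 6.11e-05) and 6.77-fold lower in K36M-TGFb than in WT-TGFb (log2 -2.76 ± 0.40, adjusted p = 2.36e-06).

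Krt6b, a stress keratin of skin, and Krt84, a hair and tongue keratin, were highest in WT-TGFb, at 3.27 and 2.37 CPM and at 2.50 and 3.16 CPM. Both had 0 reads in WT-Repsox, so that Krt6b was at least 26.0-fold and Krt84 at least 26.7-fold higher under TGF-beta there, against 3 reads over the group. Krt6a, a near copy of Krt6b, was 5.75-fold lower in K36M-TGFb than in WT-TGFb (log2 -2.52 ± 0.58, adjusted p = 0.000517), and its medium effect in WT did not pass (log2 0.86 ± 0.47, adjusted p = 0.119). Krt16, another injury keratin, stood at 3.39 ± 0.978, 1.23 ± 0.324, 1.78 ± 0.466 and 2.46 ± 0.272 CPM in WT-Repsox, WT-TGFb, K36M-Repsox and K36M-TGFb. Krt10, of the upper layers of skin, passed no comparison and stood at 1.30 to 1.70 CPM. Krt15, a basal keratin named after its values were seen, was highest in K36M-TGFb, as Krt5 was, at 3.52 and 2.80 CPM. It had 0 reads in WT-TGFb (at least 27.0-fold higher in K36M-TGFb). Unlike that of Krt5, its medium effect in K36M did not pass (log2 0.89 ± 0.46, adjusted p = 0.114). Under Repsox it was 4.63-fold higher in K36M than in WT (adjusted p = 0.00409), where Krt5 was not called. By counts, 3 of 5 other type I keratins were higher and 1 lower in K36M-TGFb than in WT-TGFb, and 0 of 3 other type II keratins were higher and 3 lower. For the medium in WT, 1 and 3 of the type I genes and 2 and 0 of the type II genes were higher and lower. Krt6b and Krt84 passed the filter only through WT-TGFb, which fixed their direction in both comparisons, so the type II counts support nothing. Krt42, counted among the type I genes higher in K36M-TGFb, passed only through that group, which fixed its direction there, so it adds no support. Of all tested genes 36.4% were higher and 33.9% lower in K36M-TGFb than in WT-TGFb, and 29.0% and 33.4% for the medium in WT.

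**Figure D4:**
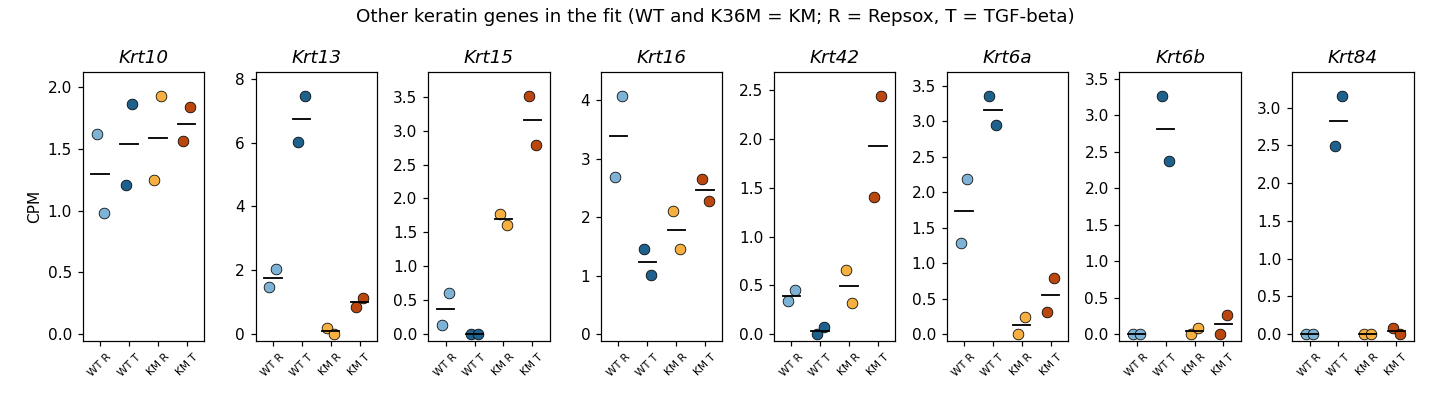
CPM of the 8 other keratin genes that passed the filter, in every library by group (KM is K36M, R is Repsox, T is TGF-beta); bars are means and each panel has its own axis from about 0. Krt13, Krt6a, Krt6b and Krt84 are highest in WT-TGFb, and Krt15 and Krt42 in K36M-TGFb.

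Genes that anchor keratin filaments at desmosomes and hemidesmosomes did not follow one direction. Of 17 tested, 7 were higher and 8 lower under TGF-beta in WT (median -0.27), 9 and 4 in K36M (median 0.32), 8 and 7 for K36M-Repsox against WT-Repsox (median 0.16), and 9 and 5 for K36M-TGFb against WT-TGFb (median 0.27). Shares of all tested genes, higher and lower, were 29.0 and 33.4%, 24.7 and 23.6%, 28.8 and 26.9%, and 36.4 and 33.9% in that order. The most abundant, the plakins Dst and Plec and the hemidesmosome integrin Itgb4, were 1.27, 1.46 and 3.79-fold higher under TGF-beta in WT. Some desmosomal genes, named after their values were seen, were lowest in WT-TGFb, as Krt8 was. Pkp3, a plakophilin of the desmosomal plaque, was read at 25.1 ± 0.550 CPM in WT-Repsox, 1.94 ± 0.415 in WT-TGFb, 65.8 ± 6.44 in K36M-Repsox and 75.3 ± 11.7 in K36M-TGFb. Ppl, the plakin periplakin, stood at 59.3 ± 6.77, 9.90 ± 1.0998, 130 ± 3.84 and 162 ± 6.69 CPM in that order, and the desmosomal cadherin Dsg2 at 60.7 ± 3.43, 6.29 ± 2.19, 152 ± 9.62 and 113 ± 2.36 CPM.

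The genes with the profile nearest to each member were sought among well-read genes, by the root mean square difference of centred log2 CPM over the 8 libraries. Nearest to Krt8 were Crb3, an apical polarity gene (0.06), Camsap3, which binds microtubule minus ends (0.09), the epithelial sorting adaptor Ap1m2 (0.25), Apoc1 and Grb7 (0.28 each). Nearest to Krt18 were Sema3f (0.20), Dppa4 and the tight junction gene Tjp3 (0.29 each), then Camsap3 and Apoc1 (0.32 each). In WT-TGFb, Sema3f, Dppa4 and Apoc1 were near the floor, at 0.036, 0.15 and 0.12 CPM. Crb3 and Tjp3, at 0.911 and 0.797 CPM, and the members Krt5 and Krt7 were also low there. At such levels the prior count added before taking logs shrinks differences, so nearness that involves these genes is less certain. Krt8 lay nearer to Crb3 than to its partner Krt18 (0.39), which was itself the closest pair among the members. The nearest to Krt7 was the imprinted H19 (0.35), to Krt19 Pim1 (0.13), to Krt80 Frmpd1 (0.22), to Krt14 Gulo (0.20), to Krt17 Abca12, a lipid transporter of skin (0.44), to Krt20 Lamb3, a laminin chain of epithelial basement membranes (0.55), and to Krt5 Cpz (0.50). The values describe these 8 libraries, in which the groups fix most of the likeness.

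Markers of other cell types also differed between groups, some lists in the direction of Krt8 and Krt18 and others against it. Their part in the results was not tested. Trophoblast cells have filaments that include Krt7, Krt8 and Krt18. The 14 trophoblast markers found summed to 4348 to 4765 CPM in WT-Repsox, 93.7 to 132 in WT-TGFb, 9156 to 9185 in K36M-Repsox and 1591 to 1619 in K36M-TGFb. Most of this was the imprinted Peg10, and Tpbpa, of the spongiotrophoblast, had 0 reads. Here 8 of 12 tested were higher and 1 lower in K36M-Repsox than in WT-Repsox, against 28.8% and 26.9% of all genes. Under TGF-beta in WT 11 of 12 were lower, against 33.4% of all genes. The 16 keratinocyte markers, which include Krt15 and Krt10, summed to 225 to 242, 212 to 216, 265 to 275 and 948 to 960 CPM in the same order of groups, the last with Krt5 and Krt17 at their highest. In K36M, 6 of 11 tested rose and 2 fell with TGF-beta, against 24.7% and 23.6% of all genes. Tgm1, a cross-linking enzyme of skin, rose 3.49-fold (log2 1.80 ± 0.08). In WT Tgm1 fell 21.6-fold instead (log2 -4.44 ± 0.14). Trp63, the master regulator of basal keratinocytes, stood at 1.71 ± 0.792, 0, 1.48 ± 0.611 and 1.01 ± 0.445 CPM.

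Mesothelial markers, 10 in number, summed to 20.9 to 22.2, 336 to 360, 47.0 to 49.1 and 147 to 155 CPM, most of it Msln in the TGF-beta groups. The 16 fibroblast markers, the labelled cells of origin, summed to 2246 to 2485, 7452 to 8650, 148 to 172 and 746 to 760 CPM. Under TGF-beta in WT 6 of them were higher and 9 lower (median -0.97), so only some carried the higher sum. The 15 of pluripotent cells summed to 2142 to 2466, 774 to 805, 2555 to 2576 and 1550 to 1562 CPM. Under TGF-beta in WT 1 was higher and 13 lower (median -5.59), a larger fall than the sum shows. Of all genes 29.0% were higher and 33.4% lower there. Oct4 and Sox2, on the pluripotent list, are reprogramming factors and may be read from transgenes. Genes of both lists were read in every group of these intermediates. Markers of primitive endoderm (89.4 to 353 CPM), gut and bladder (1.81 to 21.6 CPM) and lung and gland epithelium (7.14 to 225 CPM) were also read, and Sftpc and Nkx2-1 of the lung had 0 reads. Among 20 genes of simple epithelia, 19 were lower and 0 higher under TGF-beta in WT (median -3.43), against 33.4% and 29.0% of all genes. All 20 were higher in K36M-TGFb than in WT-TGFb (median 4.71), against 36.4% of all genes. Cdh1, the epithelial cadherin, fell 21.2-fold in WT (log2 -4.41 ± 0.14), the tight junction gene Cldn4 5.14-fold (log2 -2.36 ± 0.08) and the membrane protease gene St14 3.56-fold (log2 -1.83 ± 0.09). Krt8, Krt18 and Krt7 fell further than these named genes, and Krt19 and Krt80 within their range. Crb3 and Tjp3 of the same list, named after their values were seen, stood at 31.3 and 32.5 CPM in WT-Repsox. In WT-TGFb they stood at 0.911 and 0.797 CPM, so Krt8 did not fall further than every gene of the list.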

How the data were processed

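Gene counts, whole reads per gene in 8 libraries of rRNA-depleted RNA, were used as the authors deposited them. STAR 2.5.0, HTSeq 0.11.2, edgeR and the mm9 genome are named in the submitters' processing notes; the annotation, strand setting and treatment of reads with several matches are not given in the sources used here. Columns were matched to samples by their descriptions. Positions and exon lengths came from GENCODE vM1 on mm9.

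Tests used edgeR 4.0.16 (R 4.3.3). Genes were filtered with filterByExpr, leaving 15789, and library sizes were scaled by TMM (0.894 to 1.06). The quasi-likelihood F test took 4 group means from all 8 libraries (4 residual degrees of freedom), with Benjamini-Hochberg adjustment over all tested genes. Standard errors were obtained by dividing each log2 fold change by the root of its F value. The test borrows spread across genes and can understate that of a gene whose 2 libraries differ. The fit was tested on simulated counts. Alternatives used DESeq2 1.42.0, limma 3.58.1 (voom), other scalings and filters, a replicate block, the 4 compared libraries only, and each library left out.

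Of each other gene list, the 3 most abundant tested genes were to be named, and further names are stated; 1 such gene is not reported here. Likeness was computed over genes with an average log2 CPM of at least 3, with a prior count of 2. Members, lists and rules were chosen with earlier results of these data known.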

Additional observations from a re-analysis of the deposited data

Results flagged for a closer look

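The effect of the medium differed between K36M and WT for 6 keratins by the interaction test of edgeR. The medium effect in K36M minus that in WT was 6.61 on the log2 scale for Krt5, 5.92 for Krt7, 4.63 for Krt18, 4.11 for Krt8, 3.32 for Krt17 and 1.99 for Krt19. For Krt8, Krt18 and Krt7 both genotypes fell under TGF-beta, WT by more. Krt5 fell in WT and rose in K36M, and its value was 7.20 without WT Repsox replicate 1, 5.68 without WT Repsox replicate 2 and 7.25 without WT TGF-beta replicate 1. That of Krt7 was 6.98 without WT TGF-beta replicate 2.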

How the results depend on the processing

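The counts of members called higher or lower stayed within 1.5 times their reported value under all 17 alternatives, including each library left out: 7 to 8 higher in K36M under Repsox, 9 under TGF-beta, 5 to 7 lower in WT, 4 to 5 lower and 3 higher in K36M, and 6 called for the interaction. With the replicate block the member counts were the same in every comparison: 8 and 9 higher in K36M, 6 lower and 1 higher in WT, 4 lower and 3 higher in K36M. The labels do not say whether replicate numbers pair the libraries. Correlations of deviations between groups were weak (-0.05 to 0.12), which cannot decide it. Of 1061 log2 values, 1038 kept direction and call. No called value changed sign, and 16 uncalled ones did. With each library left out in turn, these ran from -0.77 to 0.77 for Krt5 (K36M-Repsox against WT-Repsox), from -0.082 to 0.42 for Krt14 and -0.24 to 0.56 for Krt17 (medium in WT), from -0.046 to 0.26 for Krt14 and -0.020 to 0.13 for Krt19 (medium in K36M), and from -0.32 to 0.18 for the Krt14 interaction. Under other settings, Krt5 was 0.0045 with limma-voom (K36M-Repsox against WT-Repsox), Krt14 and Krt17 were -0.029 and -0.022 with total counts (medium in WT), and the Krt14 interaction was 0.042 with upper-quartile factors and 0.14 with total counts. The causes were not tested. Krt17 in K36M-Repsox against WT-TGFb lost its call under 4 alternatives (adjusted p = 0.0505 with limma-voom, 0.0621 with the compared libraries only, 0.298 without WT TGF-beta replicate 2 and 0.376 without K36M Repsox replicate 1). With the length of the coding transcript, added after seeing the data, the share of Krt8 and Krt18 was 36.5 to 85.8% over groups, against 39.7 to 88.6%. Depth limits Krt23 and, in WT-TGFb, Krt5 and Krt7.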

Other observations

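Of 25 transcription factors known to act on epithelial keratin genes, 16 were lower and 5 higher under TGF-beta in WT (median -1.58), 11 lower and 7 higher in K36M (median -0.32), 11 higher and 9 lower in K36M-Repsox against WT-Repsox (median 0.37), and 15 higher and 8 lower in K36M-TGFb against WT-TGFb (median 1.03). In that order the shares of all tested genes were 33.4 and 29.0%, 23.6 and 24.7%, 28.8 and 26.9%, and 36.4 and 33.9%. The list mixes activators with repressors, among them Zeb1, Zeb2, Snai1 and Snai2, so higher or lower has no common meaning across it. The most abundant was Klf4, which is also a reprogramming factor and may be read from a transgene. It stood at 463 ± 24.9 CPM in WT-Repsox, 688 ± 2.11 in WT-TGFb, 175 ± 2.20 in K36M-Repsox and 208 ± 18.5 in K36M-TGFb. This order of means was that of no member, and the reverse of that of Krt8, Krt18, Krt7 and Krt80. Sp1, a general activator that binds GC boxes, was 1.68-fold lower under TGF-beta in WT (log2 -0.75 ± 0.07), and Klf6 1.54-fold higher (log2 0.62 ± 0.07). Elf3, an epithelial ETS factor named after its values were seen, was read at 53.5 ± 8.54, 0.574 ± 0.406, 175 ± 9.10 and 65.3 ± 1.62 CPM in the same order of groups.

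Other intermediate filament genes moved less uniformly than Vim. Of 17 tested, 4 were higher and 8 lower under TGF-beta in WT, and 8 higher and 3 lower in K36M. The shares of all tested genes were 29.0% and 33.4% in WT, and 24.7% and 23.6% in K36M. Bfsp2, counted among those higher in K36M, passed the filter only through K36M-TGFb, which fixed its direction there, so it adds no support. Nes, the filament protein of progenitor cells, rose with TGF-beta 8.63-fold in WT (log2 3.11 ± 0.09) and 4.83-fold in K36M (log2 2.27 ± 0.09). Lmna, which encodes the nuclear lamins A and C, was 1.51-fold higher in WT (log2 0.59 ± 0.08) and 1.204-fold lower in K36M (log2 -0.27 ± 0.08). Of 16 proteins that bind or modify keratins, 7 were higher and 4 lower under TGF-beta in WT, and 8 and 2 in K36M. These counts stand beside the same shares of all tested genes. The most abundant of these, the cross-linker Macf1, was 1.26-fold higher in WT (log2 0.33 ± 0.05).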
